A study of Homo sapiens with 6 samples.

Results

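The genes described here encode 10 enzymes of serine, glycine and folate metabolism, namely PHGDH, PSAT1, PSPH, SHMT1, SHMT2, MTHFD1, MTHFD1L, MTHFD2, ALDH1L2 and ASNS. They were picked by name from the 16670 genes of the expression table, all 10 had a row, and all 10 passed the filter on low values. By where their proteins work, 6 are cytosolic (PHGDH, PSAT1, PSPH, SHMT1, MTHFD1 and ASNS) and 4 are mitochondrial (SHMT2, MTHFD2, MTHFD1L and ALDH1L2). RNA came from A549, an established human line from a non-small cell lung cancer, in 2 groups of 3 biological replicates. The salinomycin group had been exposed to alisertib, which blocks the cell division kinase Aurora A, for 1 week to make the cells senescent, and then to 2.5 µM salinomycin, a polyether that carries alkali metal ions across membranes, for 48 h. The untreated group had the same week of alisertib and no salinomycin. Both groups are therefore senescent cells of a single line, and A549 cells without alisertib were not analysed here.

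Cells make serine from the glycolytic intermediate phosphoglycerate in a chain of reactions carried out by PHGDH, PSAT1 and PSPH. SHMT enzymes then pass a carbon unit from serine to tetrahydrofolate, which leaves glycine, and further folate enzymes oxidise that unit to formate or carbon dioxide. The steps run in parallel in the cytosol and in mitochondria, and the mitochondrial arm usually works toward formate, which the cytosol uses for purines and thymidylate. Genes of the pathway and ASNS, the asparagine synthetase gene, are well known targets of ATF4, the transcription factor of the amino acid and integrated stress response.

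RefSeq promoter windows (GRCh38.p14, 250 bases before to 50 after a start site) were found for 7 of the 10 genes. PSPH, SHMT2 and ALDH1L2 had no window and were not searched. The windows were searched on both strands for an element that ATF4 binds with a C/EBP partner, TGATGNAAN. This element was present for 2 of the 7 genes and for 4.45% of the 27305 genes with a window. The sites are shown, with the element in capitals, because 1 of the genes rose and the other fell. That of ASNS lay on chr7:97872458-97872486 (gene on the minus strand), at position -68 from the start site, and that of MTHFD1L on chr6:150866347-150866375 (plus strand), in the windows of 3 of its start sites.
ASNS: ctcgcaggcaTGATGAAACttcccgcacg
MTHFD1L: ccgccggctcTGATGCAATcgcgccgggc
The E-box CACGTG was found for MTHFD1 and MTHFD1L, and the antioxidant element TGACNNNGC for MTHFD2 alone among the 7, against 8.77% and 16.06% of all genes with a window. A match of letters is a description of the window and not evidence of binding, and the 3 motifs do not overlap at the sites found.

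With salinomycin 6 of the 10 genes rose and 3 fell, and MTHFD1 did not pass. Of all 13088 tested genes 41.6% rose and 40.2% fell (limma, threshold 0.05 after Benjamini-Hochberg adjustment). The 3 falls in 10 are no more than the background share. The 6 rises in 10 are not far above their share for so few genes, and the excess was not tested. Rises of at least 2-fold were found for all 6 of the genes that rose, against 16.8% of tested genes. A fall of at least 2-fold was found for 1 gene, against 18.5%. The 10 genes were chosen with earlier results of these data known, so an excess over these shares is no independent support. The values of the salinomycin libraries did not overlap those of the untreated libraries for any of the 10 genes, which also held for 83.0% of tested genes. The median log2 change was 1.25 over the 10 genes, 0.58 over the 6 cytosolic enzymes and 1.58 over the 4 mitochondrial ones, beside 0.02 over all tested genes. ASNS met the filter on low values (10 before scaling, in 3 libraries or more) only through the salinomycin libraries, so its rise is no support for these counts. Over the 9 genes that met it within each group, 5 rose, all at least 2-fold, and 3 fell, and the median was 1.05, with 0.11 over the 5 cytosolic enzymes left. Of the 11967 genes of the table that met the filter within each group, 42.0% rose and 39.8% fell. At least 2-fold, 1793 of the 11967 rose and 1938 fell. Values are given below in normalised units, which are the deposited library values minus an apparent offset of 1, scaled between libraries. They are not per length and serve to compare a gene across libraries only.

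Per library, the deposited totals lay between 16338795 and 16382904 with salinomycin and between 16270249 and 16312248 in untreated cells, since the authors had rescaled them. Reads estimated from the rounding steps numbered 14929443 to 19641149 in salinomycin libraries and 13539959 to 16391152 in untreated ones. Across genes, libraries of the same group correlated at 0.9929 to 0.9952 and libraries of different groups at 0.8429 to 0.8476. Summed levels of 5 epithelial markers were 33824 to 37954 units with salinomycin and 152080 to 167700 units in untreated libraries, with KRT18 the highest marker. KRT8, KRT18, CDH1 and EPCAM fell, whereas KRT19 rose 1.66-fold. The 5 fibroblast markers summed to 409 to 448 units with salinomycin and 569 to 773 units without, mostly COL1A1, and DCN was at 0 in all salinomycin libraries. The 3 endothelial markers with a row, of 4, summed to 2.82 to 10.2 units with salinomycin and 9.60 to 15.1 units without, led by VWF with salinomycin and by CDH5 without. The 2 leukocyte markers with a row, of 4, were LYZ and CD68 and summed to 27.2 to 31.9 units with salinomycin and 4.27 to 14.9 units without, and PTPRC and CD3E were not analysed here. The part of these marker differences in the results was not tested. In bulk RNA fewer cells of a kind and less RNA per cell cannot be told apart.

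**Figure D1:**
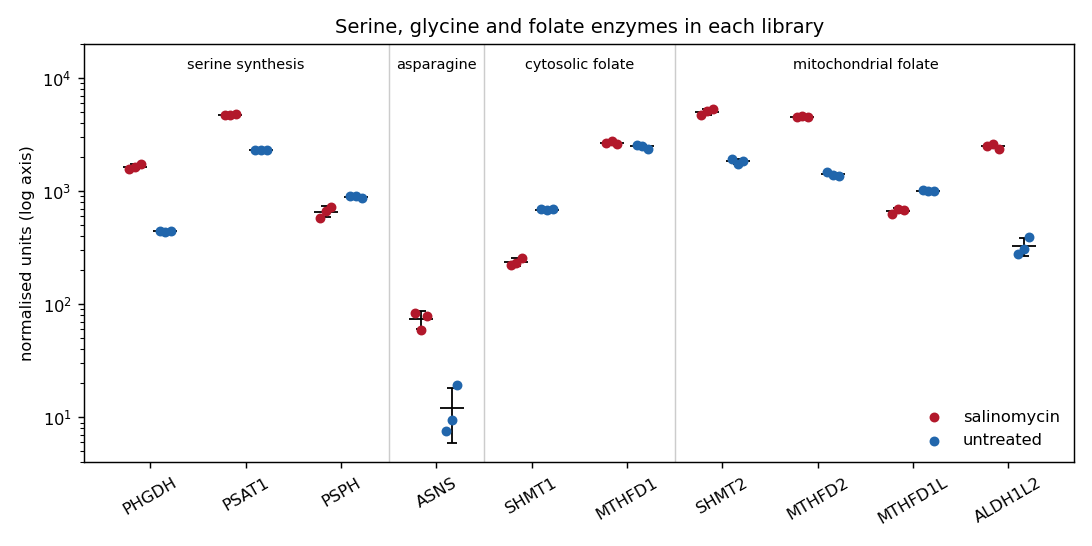
Level of each of the 10 genes in normalised units on a log axis, with salinomycin libraries (red) left of untreated libraries (blue), and bars for the mean and SD of 3 libraries. Red points lie above blue ones for PHGDH, PSAT1, ASNS, SHMT2, MTHFD2 and ALDH1L2, below them for PSPH, SHMT1 and MTHFD1L, and only just above them for MTHFD1.

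In the serine synthesis route the first and second enzymes rose and the last fell. PHGDH, which encodes the phosphoglycerate dehydrogenase that commits carbon to serine (chromosome 1, 119648411 to 119744226, GRCh38), had 1555, 1643 and 1735 units in the salinomycin libraries and 446, 435 and 441 units in the untreated ones. The lowest salinomycin value stood far above the highest untreated value, a 3.72-fold rise (log2 change 1.90, SE 0.06; limma adjusted p = 5.65e-11). PSAT1, the phosphoserine aminotransferase gene (chromosome 9, 78297143 to 78330093), had 4723, 4703 and 4824 units with salinomycin and 2312, 2293 and 2294 units without. Its spread was small, with an SD of 64.9 units with salinomycin and 10.9 units without (n = 3 each), and it rose 2.06-fold (log2 change 1.05, SE 0.04; limma adjusted p = 5.94e-10).

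PSPH, whose phosphatase releases serine in the final step (chromosome 7, 56011051 to 56051604), had 580, 673 and 725 units in salinomycin libraries, against 903, 902 and 864 units in untreated libraries. All 3 salinomycin values were lower, with salinomycin replicate 1 the lowest, and the mean fell to 659 ± 73.1 units with salinomycin, against 890 ± 22.0 units in untreated cells (SD, n = 3 each; log2 change -0.44, SE 0.08; limma adjusted p = 0.00026). The log2 change of PSPH was -0.25 when library totals alone set the scale, still past the threshold. The annotation lists 1 pseudogene of PSPH and 4 of PSAT1, none with a row in the table, so reads could have been split among copies. Within each library the PHGDH level per kb of exon was 0.803, 0.731 and 0.717 of that of PSPH with salinomycin and 0.148, 0.145 and 0.153 of it without. This ratio, which no scaling between libraries can alter, was 5.05-fold higher with salinomycin. With the longest transcript as the length, it was 1.84, 1.67 and 1.64 with salinomycin and 0.339, 0.330 and 0.349 without. Whether PHGDH or PSPH is the higher with salinomycin thus depends on the length used.

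ASNS, which makes asparagine from aspartate and glutamine in the cytosol and shares its control by amino acid supply with the pathway, was the lowest of the 10 genes in both groups (chromosome 7, 97852118 to 97872542). It had 84.2, 59.1 and 78.9 units with salinomycin, and 7.57, 9.58 and 19.2 units in untreated libraries, from an estimated 264 reads over the 3 salinomycin libraries and 31 reads over the 3 untreated ones. Untreated replicate 3 was the highest of its group and alone reached the filter there, so that ASNS was tested because of its salinomycin values, and the groups did not overlap. The rise was 6.07-fold (log2 change 2.60, SE 0.30; limma adjusted p = 5.58e-06), and its log2 change ran between 2.06 with a pseudocount of 8 and 2.96 without untreated replicate 3. In GENCODE release 29 the processed transcript AC079781.5, on the same strand, covers 96.1% of the coding bases of ASNS, and it had no row in the table. The annotation also lists 4 pseudogenes of ASNS, none with a row. Whether reads shared with AC079781.5 or with these copies were left out of the ASNS level was not tested, and its level is uncertain for both reasons.

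**Figure D2:**
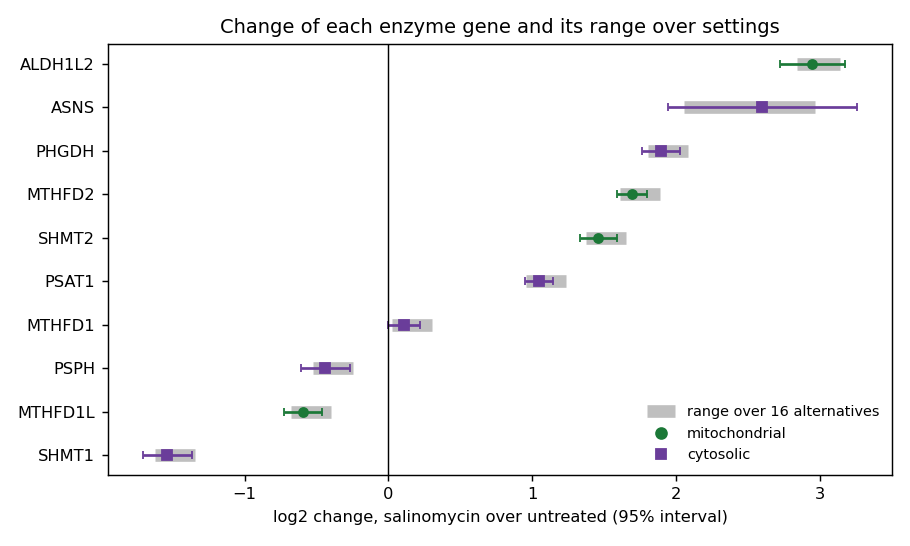
Change of each gene on the log2 scale, salinomycin over untreated, with its 95% interval, for mitochondrial (green circles) and cytosolic (purple squares) enzymes. Grey bars give the range over 16 alternative settings, which stays on 1 side of 0 for all 10 genes, while the interval of MTHFD1 reaches 0.

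Of the cytosolic folate enzymes SHMT1 fell and MTHFD1 did not pass. SHMT1, the cytosolic serine hydroxymethyltransferase gene (chromosome 17, 18327860 to 18363563), had 223, 230 and 258 units in salinomycin libraries, against 693, 677 and 695 units in untreated libraries. It was the only member with a fall of at least 2-fold, of 2.90-fold (log2 change -1.54, SE 0.08; limma adjusted p = 2.61e-09). Its exons share 196 bases with SMCR8 on the opposite strand, which is 2.7% of them.

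MTHFD1 encodes the cytosolic enzyme that joins formate to tetrahydrofolate and reduces the product stepwise (chromosome 14, 64388031 to 64463457). Its values were 2670, 2778 and 2608 units with salinomycin and 2571, 2510 and 2382 units without. The groups lay side by side, with 2608 against 2571 units where they came closest, and the test was not passed (log2 change 0.11, SE 0.05, 95% interval -0.0003 to 0.22; limma adjusted p = 0.061). Adjusted p was 0.047 without untreated replicate 1 (log2 change 0.13) and 0.00012 with scaling by library size alone (log2 change 0.30). The authors' deposited table, whose fold changes rest on the totals as rescaled, gives MTHFD1 a log2 fold change of 0.307 with an adjusted p of 3.78e-06.

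Of the mitochondrial folate enzymes 3 rose and 1 fell. SHMT2, the mitochondrial counterpart of SHMT1 (chromosome 12, 57229327 to 57234935), had 4700, 5124 and 5327 units with salinomycin, against 1910, 1741 and 1846 units in untreated cells. All salinomycin libraries were well above all untreated ones, by 2.75-fold (log2 change 1.46, SE 0.06; limma adjusted p = 4.05e-10). MTHFD2, the mitochondrial dehydrogenase and cyclohydrolase gene (chromosome 2, 74198562 to 74217565), had 4569, 4583 and 4540 units in the salinomycin group and 1465, 1400 and 1363 units in the untreated group.

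MTHFD2 had the smallest relative spread of the 10 genes with salinomycin, a coefficient of variation of 0.482%. Sampling of its estimated 4464 to 5939 reads per salinomycin library would alone be expected to spread more. The small value thus describes these 3 libraries only. MTHFD2 rose 3.24-fold (log2 change 1.70, SE 0.05; limma adjusted p = 2.57e-11). SLC4A5 shares 27.2% of the exon bases of MTHFD2 on the opposite strand but none of its coding bases, and 7 MTHFD2 pseudogenes are annotated, none with a row. How strand was used in counting is not given in the sources used here.

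ALDH1L2, which oxidises formyl-tetrahydrofolate to carbon dioxide and yields NADPH in mitochondria (chromosome 12, 105019784 to 105084577), showed the largest change of the 10. Its values were 2532, 2587 and 2381 units with salinomycin and 277, 311 and 389 units without. Untreated replicate 3 was again the highest of its group, and every salinomycin value exceeded it severalfold. The rise was 7.73-fold (log2 change 2.95, SE 0.10; limma adjusted p = 1.23e-10), and 94.9% of tested genes had a change no larger than this in either direction.

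MTHFD1L, whose enzyme releases formate from formyl-tetrahydrofolate in mitochondria (chromosome 6, 150865549 to 151101887), went against the other 3 mitochondrial genes. It had 630, 697 and 682 units in salinomycin libraries and 1030, 1000 and 998 units in untreated libraries. The groups were clearly apart, and the untreated mean was 1.51 times the salinomycin mean on the fitted scale (log2 change -0.59, SE 0.06; limma adjusted p = 1.69e-06). ALDH1L2 and MTHFD1L draw on the same formyl-tetrahydrofolate, and the ratio of their levels per kb was 2.37, 2.19 and 2.06 with salinomycin against 0.159, 0.183 and 0.230 in untreated libraries. The order of the 2 genes was thus turned round, with ALDH1L2 the higher with salinomycin and MTHFD1L the higher without it.

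Ratios within a library compare the cytosolic and the mitochondrial arm with no dependence on scaling. The level of SHMT2 per kb was 31.7, 33.6 and 31.1 times that of SHMT1 in salinomycin libraries and 4.15, 3.87 and 4.0 times it in untreated libraries, so that the ratio was 8.01-fold higher with salinomycin. MTHFD1L per kb was 0.441, 0.468 and 0.489 of MTHFD1 with salinomycin and 0.748, 0.744 and 0.782 of it without, a change in the opposite direction. Summed over the mitochondrial SHMT2, MTHFD2, MTHFD1L and ALDH1L2 and divided by the sum of the cytosolic SHMT1 and MTHFD1, the ratio was 7.55 ± 0.22 with salinomycin and 2.52 ± 0.07 in untreated cells (SD, n = 3 each). The choice of length moves the ratios themselves, with 6.29 with salinomycin and 1.91 without for the summed one when the longest transcript is used, but not the fold between groups for a pair of genes.

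**Figure D3:**
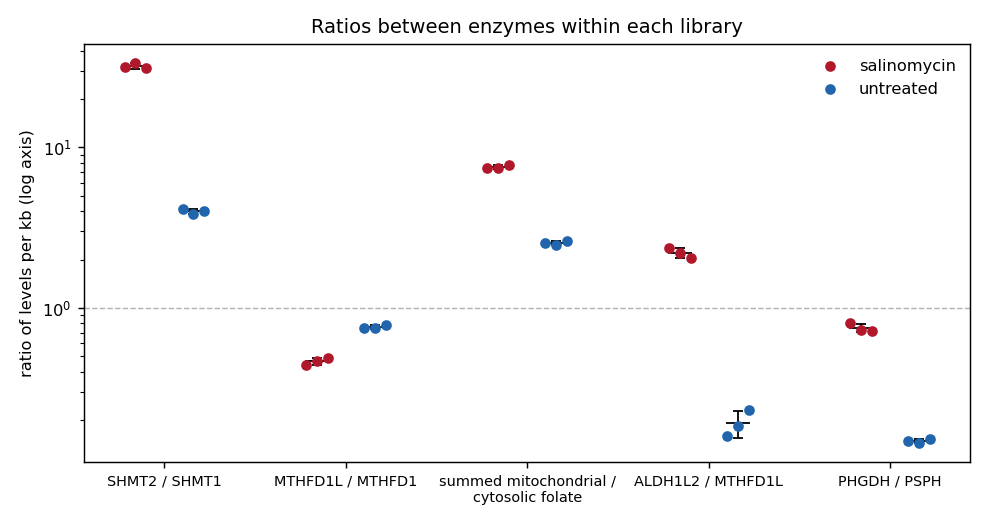
Ratios of levels per kb of exon between pairs of enzymes, or sums of enzymes, in each library on a log axis, with salinomycin (red) left of untreated (blue) and bars for the mean and SD of 3 libraries. SHMT2 over SHMT1 lies between 31.1 and 33.6 with salinomycin, and the ratio of ALDH1L2 to MTHFD1L lies above the dashed line at 1 with salinomycin and below it without.

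Per kb of exon, the order of the levels with salinomycin was PSAT1 (2171 ± 29.7 units per kb), SHMT2 (1044 ± 66.1), MTHFD2 (937 ± 4.51), ALDH1L2 (294 ± 12.6), MTHFD1 (286 ± 9.18), PSPH (239 ± 26.5), PHGDH (178 ± 9.74), MTHFD1L (133 ± 6.94), SHMT1 (32.5 ± 2.56) and ASNS (16.6 ± 2.98; SD, n = 3). ALDH1L2 and MTHFD1 did not differ beyond their spread. In untreated cells PSAT1 (1051 ± 4.99 units per kb) and SHMT2 (379 ± 17.7) also led, followed by PSPH (322 ± 7.97), MTHFD2 (289 ± 10.6), MTHFD1 (265 ± 10.3), MTHFD1L (201 ± 3.61), SHMT1 (94.5 ± 1.36), PHGDH (47.8 ± 0.61), ALDH1L2 (38.3 ± 6.80) and ASNS (2.72 ± 1.40). ALDH1L2 had rank 4 with salinomycin and rank 9 without, and SHMT1 rank 9 with and rank 7 without. With the longest transcript as the length, PHGDH moved up to 517 units per kb and rank 4 with salinomycin, and ALDH1L2, at 331 units per kb, stood below MTHFD1, at 394 units per kb, with rank 6. PSPH then had rank 7 with salinomycin. In untreated cells MTHFD1, at 365 units per kb, then stood above MTHFD2, at 316 units per kb. The places of PHGDH, ALDH1L2, PSPH, MTHFD1 and MTHFD2 in the order therefore depend on the length used.

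Other genes of the pathway were read from 8 lists and give the surroundings of these changes. The lists and the members were chosen with earlier results of these data known, and counts are set beside the 41.6% higher and 40.2% lower of all genes. Of each list the 3 largest changes past the threshold are named (2 among the other folate genes), and genes named beyond these were chosen after their values were seen.

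Around glycine in mitochondria, 3 of 7 tested genes rose and 1 fell. The list median on the log2 scale was -0.06. Over the 6 genes of the list that met the filter within each group, 3 rose and 1 fell, around a median of 0.25. GCAT, which forms glycine from a breakdown product of threonine, had 857 ± 94.8 units with salinomycin and 32.9 ± 6.16 units in untreated cells (SD, n = 3 each), a 25.5-fold rise (limma adjusted p = 4.00e-11). GLDC, the decarboxylase of the glycine cleavage system, fell to 185 ± 5.49 units with salinomycin, against 998 ± 39.2 units in untreated cells. SFXN1, a mitochondrial serine carrier, rose 1.68-fold. AMT, the aminomethyltransferase of the cleavage system, was below the filter.

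The list of serine breakdown and racemisation, which also holds enzymes of neighbouring steps such as glyoxylate and glycerate metabolism, was split, with 2 of 4 tested genes higher and 2 lower around a median of -0.81. SRR, the serine racemase gene, fell to 88.7 ± 5.65 units with salinomycin, against 348 ± 18.6 units without, and SDS, a serine dehydratase gene, to 2.48 ± 1.92 units, against 14.3 ± 4.47 units. SDS met the filter only through the untreated libraries, and without it 2 of 3 genes rose and 1 fell, around a median of 0.34. GLYCTK, the glycerate kinase gene, rose 2.93-fold.

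Among the other folate genes 5 of 15 tested rose, none of them 2-fold, and 6 fell. The list median was 0.13. ATIC, which uses formyl-tetrahydrofolate in purine synthesis, had 1487 ± 39.0 units with salinomycin and 3417 ± 212 units in untreated cells. FOLR1, a folate receptor gene, had 11.1 to 30.9 units with salinomycin and 40.4 to 84.3 units in untreated cells (log2 change -1.26).

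Close relatives of MTHFD2 and ALDH1L2 outside the 10 did not pass. MTHFD2L, a second mitochondrial dehydrogenase, had 90.3 ± 10.4 units with salinomycin and 86.7 ± 0.74 units without (log2 change 0.05, 95% interval -0.23 to 0.33). ALDH1L1, the cytosolic counterpart of ALDH1L2, had 16.5 ± 3.30 units with salinomycin and 15.0 ± 2.97 units without (log2 change 0.13, 95% interval -0.46 to 0.71). Both intervals lie below the rises of MTHFD2 and ALDH1L2.

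In the methionine cycle and transsulfuration 5 of 11 tested genes rose and 4 fell. The list median was -0.11. CTH, which splits cystathionine to cysteine, rose 3.76-fold to 210 ± 8.20 units with salinomycin, against 56.1 ± 12.2 units in untreated cells. MAT1A and GNMT, which make and use S-adenosylmethionine, were low. MAT1A had 8.72 units with salinomycin and 26.4 units without, and GNMT 10.9 units with salinomycin and 4.29 units without. MAT1A met the filter only through the untreated libraries and GNMT only through the salinomycin libraries, and without them 4 of 9 genes rose and 3 fell. In the list of aspartate, asparagine, glutamine and proline enzymes 7 of 11 rose and 3 fell, around a median of 0.24. GOT1, the cytosolic aspartate aminotransferase gene, and PYCR3, a pyrroline carboxylate reductase gene, rose 3.40-fold and 3.56-fold, whereas GLUL, the glutamine synthetase gene, fell to 244 ± 18.4 units with salinomycin, against 1109 ± 65.5 units without.

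Cytosolic aminoacyl-tRNA synthetases, which charge tRNAs with amino acids, were mostly higher, with 16 of 20 up and 3 down around a median of 0.85. WARS1, SARS1 and GARS1, for tryptophan, serine and glycine, rose 4.08, 2.43 and 2.43-fold. NARS1, for asparagine, rose 1.93-fold. Carriers of serine, glycine or asparagine at the cell surface numbered 4 higher and 3 lower of 7 tested, around a median of 0.76. SLC1A4, which exchanges serine and other small neutral amino acids, had 3318 ± 59.3 units with salinomycin and 363 ± 11.7 units in untreated cells, a 9.11-fold rise. SLC38A1 rose 2.85-fold, and SLC6A14 fell to 2.81 ± 2.49 units with salinomycin, against 62.4 ± 11.7 units without. SLC6A14 met the filter only through the untreated libraries, and without it 4 of 6 genes rose and 2 fell.

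Of 15 genes listed for the ATF4 pathway, not all of them regulators, 12 rose and 2 fell, around a median of 1.27. ATF4 itself had 10920 ± 513 units with salinomycin and 5748 ± 248 units in untreated cells, a 1.90-fold rise (limma adjusted p = 1.00e-08). The largest rises were those of ATF3, DDIT3 and TRIB3, of 12.0, 11.9 and 9.95-fold.

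**Figure D4:**
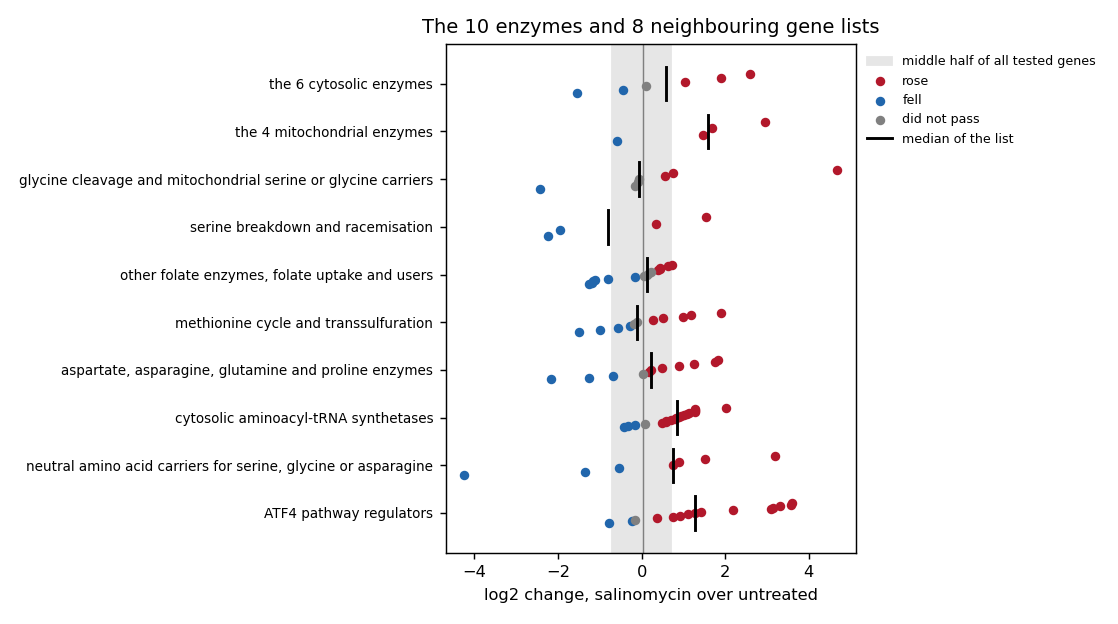
Change on the log2 scale, salinomycin over untreated, of each tested gene of the 2 compartments and of 8 neighbouring lists, coloured by whether it rose, fell or did not pass, with a black bar at the list median. The grey band spans the 25th to 75th percentile of all tested genes (-0.71 to 0.69) and the thin line marks their median of 0.02.

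The authors' deposited table gives all 10 genes the same direction of change as above. Its log2 fold changes for genes that rose were 2.09 for PHGDH, 1.24 for PSAT1, 2.7 for ASNS, 1.66 for SHMT2, 1.89 for MTHFD2 and 3.13 for ALDH1L2. For genes that fell the authors' deposited table has -0.24 for PSPH, -1.34 for SHMT1 and -0.39 for MTHFD1L, smaller falls than on the scale used here, where scaling by trimmed means lowers salinomycin values relative to untreated ones.

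Gene sets named for folate, single-carbon groups, the serine family or glycine were read from the authors' deposited table, leaving out names that start with hp. Of the 9 sets kept, 7 had a normalised enrichment score above 0 and 2 below 0. None had an adjusted p under 0.05 there, the lowest being 0.0914. The set for serine family amino acid synthesis had a score of 1.18 (adjusted p = 0.485) in the authors' deposited table. The genes in these sets were not analysed here.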

How the data were processed

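Gene-level RNA-seq values of 3 salinomycin and 3 untreated libraries were analysed. The labels call the 3 replicates of a group biological; if they do not come from separate cultures, p-values measure technical spread. The deposited signal values are whole-number read counts per gene after rescaling by the authors, with a lowest value of 1. Reads were placed on GRCh38, per the submitters' processing notes. Aligner, counter and annotation names are not given in the sources used here. Log2 fold changes, p-values and enrichment scores of the authors were used as deposited.

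The 1 was subtracted and values were scaled by trimmed means of log ratios (30% of ratios and 5% of levels trimmed; factors 1.06 to 1.08 in salinomycin and 0.926 to 0.943 in untreated libraries). Genes reaching 10 in 3 libraries or more (13088 tested, 3582 set aside) were tested as log2(value + 1) with limma 3.58.1 in R 4.3.3, with an intensity trend in the prior variance and a threshold of 0.05 after Benjamini-Hochberg adjustment over all of them. Fold changes are on this scale and understate changes of low genes. The fit was tested on simulated data in which far fewer genes changed than here, equally in both directions. Scaling under changes as broad as these was therefore not tested by it.

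Reads were estimated from rounding steps: in libraries scaled up, 99.59% to 99.98% of low values could be reached from whole reads. Chi-square per gene between same-group libraries was 2.86 to 6.75, beyond sampling noise, so none was counted as a repeat of another. Coordinates, lengths and overlaps are from GENCODE release 29 (GRCh38). Named genes were all members and, of each list, the 3 with the largest change past the threshold, except that some results on other folate genes are not reported here. AMT, MTHFD2L, ALDH1L1, NARS1, ATF4 and the epithelial markers were named after their values were seen. Members and lists were chosen with earlier results of these data known. Alternatives were other scalings, filters, pseudocounts, limma-voom on estimated reads, a replicate block and leaving out each library.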

Additional observations from a re-analysis of the deposited data

How the results depend on the processing

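Over 16 alternative settings, 9 of the 10 genes kept the direction and the side of the threshold of the values reported, and MTHFD1 kept its direction. MTHFD1 passed with library-size scaling (log2 change 0.3018, adjusted p = 0.00012) and without untreated replicate 1; leaving out each library in turn gave 0.079 to 0.1347. The count of members that rose was 7 under those settings and 6 otherwise, and 3 fell under every setting. With upper-quartile scaling the rise of PSAT1 was below 2-fold (log2 change 0.96). Upper-quartile scaling gave 3 lower genes of glycine cleavage and mitochondrial carriers, and the stricter filter, which tests fewer genes, 1 lower gene of serine breakdown. Lower genes of the ATF4 pathway list numbered 1 with library-size scaling and 3 with upper-quartile scaling, against 2 as reported. They numbered 1 to 3 when a library was left out. The count was 1 without untreated replicate 1 or salinomycin replicate 1, and 3 without untreated replicate 3. The cause was not tested, apart from the smaller number of genes tested under the filter. Library-size scaling moved the median change of all genes to 0.21 and the split of calls to 6461 higher and 4353 lower. A replicate block left 6 members higher and 3 lower and gave 5325 higher and 5130 lower genes. Same-numbered libraries did not deviate together (correlations -0.17, -0.01 and -0.03), so no pairing by number was seen. Differently numbered libraries were not compared in this way, and a weak shared effect could have been missed. Estimated reads of 31 in untreated cells limit the precision of ASNS.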
